A study of Mus musculus with 12 samples.

Results

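The sarcoplasmic reticulum calcium handling genes are a list of 10 genes whose products store, release and take up calcium in heart muscle: *Ryr2*, *Trdn*, *Asph*, *Casq2*, *Hrc*, *Jph2*, *Atp2a2*, *Pln*, *Sln* and *Camk2d*. Members were all H3K4me3 peaks that carry the name of a listed gene. Of 15848 peaks in all, 9 were members, 1 for each of 9 genes, and *Sln* had none. H3K4me3, trimethylation of histone H3 at lysine 4, was profiled by ChIP–seq, the sequencing of DNA pulled down with an antibody to the mark, in nuclei of adult mouse cardiomyocytes (CMs), sorted by the nuclear protein PCM1 from ventricles. The 3 CtrlCre libraries came from mice with αMHC-Cre and 2 intact *Cpt1b* alleles. The 3 Cpt1bcKO libraries came from mice with αMHC-Cre and floxed *Cpt1b* (fl/fl), in which exons 10 and 11 are removed. Both genotypes thus carry the Cre transgene, which the cardiac alpha myosin heavy chain promoter drives in CMs before birth, so the gene was lost long before the adult stage that was sampled. *Cpt1b* encodes the muscle form of carnitine palmitoyltransferase 1, through which mitochondria take in long-chain fatty acids, and the study asked how its loss alters the chromatin of CMs. The labels give no exact age, and do not say whether each library came from 1 mouse or from a pool, so p-values measure the spread between these libraries, which may be partly technical.

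In a heartbeat, calcium that enters through surface channels opens the ryanodine receptor, which releases far more calcium from the sarcoplasmic reticulum, and a calcium pump then returns it to the store. Release channel, store proteins and surface membrane are held together by junctional proteins, and small membrane peptides restrain the pump. H3K4me3 marks the starts of active genes, and in a given cell type the genes central to its identity often carry it over a long stretch.

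The 6 libraries held from 763133 counts in peaks (CtrlCre replicate 2) to 2766416 (Cpt1bcKO replicate 2). These whole counts were recovered from the deposited values, and whether 1 count is 1 read was not tested. Values are normalized counts, that is, counts in a peak divided by a factor for the depth of the library. Of the 15848 peaks, 15039 averaged at least 10 and were tested, among them all 9 members. Of 12 CM marker genes, 11 carried a tested peak, and their summed normalized counts ranged from 7958 to 9249 in CtrlCre and from 6558 to 8718 in Cpt1bcKO. Of 18 markers of endothelium, fibroblasts, mural cells and leukocytes, 3 carried a tested peak, with sums from 126 to 163 and from 105 to 129. Peaks were compared with limma, a linear model fitted to each peak on the log2 scale, with variance estimates that draw on all peaks. None of these 15 marker peaks had an adjusted p under 0.05 by limma. The same held by limma-voom on recovered counts. By limma 5 had an unadjusted p under 0.05, where 12.8% of all tested peaks did. Of these 5, 4 were lower in Cpt1bcKO, 3 of them among the 12 peaks of CM markers, and 1 was higher. Their part in the results was not tested. The peak named for the targeted gene, which the mark does not show to be deleted, is 9156 bases wide. Whether it covers other genes was not examined. It held 428, 407 and 436 normalized counts in CtrlCre against 572, 689 and 568 in Cpt1bcKO. The log2 difference was 0.52 ± 0.10 (SE, limma, adjusted p = 0.00357).

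Promoter sequence is shown first for 5 members, since H3K4me3 is known to be deposited most readily at promoters rich in CpG. These 5 span the base composition of the listed genes that have a promoter entry. The RefSeq promoter table of build GRCm38.p6 matched 6 of the 10 genes: *Ryr2*, *Casq2*, *Hrc*, *Jph2*, *Pln* and *Camk2d*. Each line gives the 250 bases before the transcript start, 5′ to 3′ on the strand of the gene. Capitals mark matches, on either strand, to TATAAA, to GGGCGG (or its complement CCGCCC), to the MEF2 consensus or to the CArG box, which is bound by serum response factor.
Hrc, chr7:45335019-45335268, plus strand: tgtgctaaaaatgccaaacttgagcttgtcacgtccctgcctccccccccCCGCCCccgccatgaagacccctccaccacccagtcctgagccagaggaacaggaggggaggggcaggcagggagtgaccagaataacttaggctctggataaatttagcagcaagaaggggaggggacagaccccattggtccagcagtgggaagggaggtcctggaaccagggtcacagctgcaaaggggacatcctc
Ryr2, chr13:12106946-12107195, minus strand: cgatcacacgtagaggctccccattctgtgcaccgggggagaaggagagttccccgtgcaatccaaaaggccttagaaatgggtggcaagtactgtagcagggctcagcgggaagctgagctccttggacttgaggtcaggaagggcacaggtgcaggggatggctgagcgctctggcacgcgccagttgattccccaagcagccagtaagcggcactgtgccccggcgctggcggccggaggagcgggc
Casq2, chr3:102086165-102086414, plus strand: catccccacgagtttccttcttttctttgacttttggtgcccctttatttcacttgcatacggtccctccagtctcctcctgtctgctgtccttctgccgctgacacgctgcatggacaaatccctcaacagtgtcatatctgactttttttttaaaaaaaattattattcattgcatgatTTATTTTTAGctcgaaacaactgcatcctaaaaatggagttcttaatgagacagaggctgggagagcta
Pln, chr10:53337436-53337685, plus strand: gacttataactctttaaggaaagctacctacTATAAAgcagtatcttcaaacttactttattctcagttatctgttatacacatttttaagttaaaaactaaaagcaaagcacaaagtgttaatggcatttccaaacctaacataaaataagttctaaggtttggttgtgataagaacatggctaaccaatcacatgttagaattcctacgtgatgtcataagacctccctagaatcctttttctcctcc
Camk2d, chr3:126596701-126596950, plus strand: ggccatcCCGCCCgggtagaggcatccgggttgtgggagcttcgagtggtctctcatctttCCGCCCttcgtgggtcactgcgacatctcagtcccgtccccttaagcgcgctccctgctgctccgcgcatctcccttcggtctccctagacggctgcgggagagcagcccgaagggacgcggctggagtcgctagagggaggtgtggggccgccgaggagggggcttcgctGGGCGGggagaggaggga
Composition differed widely. The *Pln* window had 32.8% G and C and 1 CpG, and 2.92% of the 32851 promoters had less G and C. The *Casq2* window had 41.6% G and C and 5 CpG. *Hrc* had 59.6% with only 3 CpG. *Ryr2* had 63.2% with 14 CpG, and *Camk2d* stood at the other end with 68.4% and 23 CpG, more CpG than 86.7% of all promoters. *Jph2*, with 2 overlapping entries, had 62.0% and 62.8% G and C with 5 and 6 CpG. The medians over all promoters were 52.4% and 6 CpG. GGGCGG was found in *Hrc*, *Jph2* and, 3 times, in *Camk2d*, and in 32.7% of all promoters. TATAAA was found in *Pln*, starting 219 bases before the transcript start, and in 12.4% of all promoters. A MEF2 match began 69 bases before the start of *Casq2*, against 2.92% of all promoters with one. No window of a member held a CArG box, which 1.47% of promoters did. The members with long peaks thus included both CpG-rich and CpG-poor windows.

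The member peaks were long. Their median width was 8619 bases, against 1514 over all tested peaks. In the terms of the study, broad peaks are those above the 75th percentile of width, here 2222 bases, and 8 of the 9 members were broad, while *Asph* was of medium width with 1561 bases. A width of 5000 bases or more was reached by 7 of 9 members and by 3.36% of tested peaks. The *Atp2a2* peak was the longest at 11341 bases, rank 29 of 15039. *Jph2* (9347 bases), *Pln* (9225), *Hrc* (8739) and *Ryr2* (8619) followed, and *Trdn* (5863), *Casq2* (5798) and *Camk2d* (3901) were shorter.

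Levels per length were ordinary by comparison. Per kb of peak, the members had a median of 73.0 normalized counts, against 60.5 over all tested peaks and 61.7 over broad ones. *Camk2d* (97.5 per kb) and *Pln* (96.5 per kb) were densest, higher than 84.2% and 83.5% of tested peaks. *Casq2* (81.2), *Atp2a2* (76.3), *Jph2* (73.0), *Ryr2* (67.0) and *Asph* (61.5) lay between, and *Trdn* (52.4) and *Hrc* (46.4) were lowest per kb. The highest total signals of members, *Pln* at rank 10 and *Atp2a2* at rank 11 of 15039, therefore came with width more than with density.

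**Figure D1:**
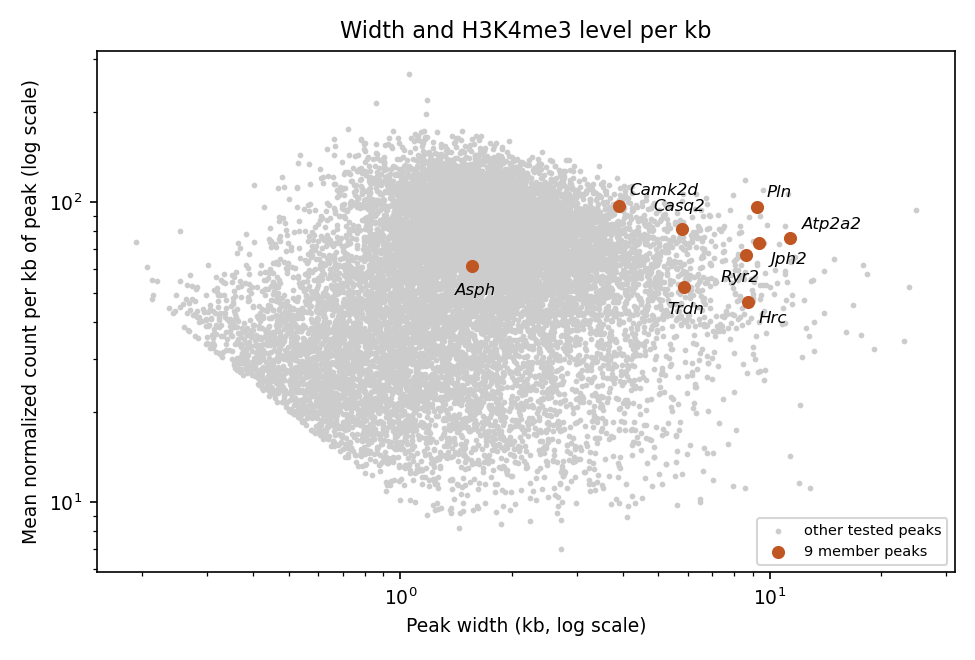
Width of each tested peak (kb, log scale) against its mean normalized count per kb over the 6 libraries (log scale), with the 9 member peaks named. Of the members, 7 lie at 5 kb or more while their levels per kb, from 46.4 to 97.5, fall within the cloud of the other peaks.

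The peaks reached mainly into the genes. Measured from the annotated gene start, the *Ryr2* peak ran from 229 bases upstream to 8390 downstream, that of *Jph2* from 927 upstream to 8420 downstream, and that of *Atp2a2* from 1015 upstream to 10326 downstream. *Pln* is a gene of 8321 bases, and its peak covered 81.1% of it. *Hrc* spans 3685 bases, all of them inside its peak. In the very long genes *Ryr2*, *Trdn* and *Camk2d* the peaks covered 1.52%, 1.48% and 1.37% of the gene. By the GENCODE vM21 annotation most of each peak was intronic, from 60.3% to 91.0% in 7 members, with *Asph* (48.9% exonic) and *Hrc* (29.4% exonic, 12.8% intronic) as exceptions. Some peaks cover more than the gene that names them. The *Pln* peak lies within *Cep85l* on the other strand and covers a start of the transcript *Gm47644*, also on that strand. The *Atp2a2* peak overlaps the unstudied transcripts *Gm43360* and *Gm43361*, and the *Asph* peak overlaps a predicted microRNA gene. The signal at such places cannot be divided between genes.

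**Figure D2:**
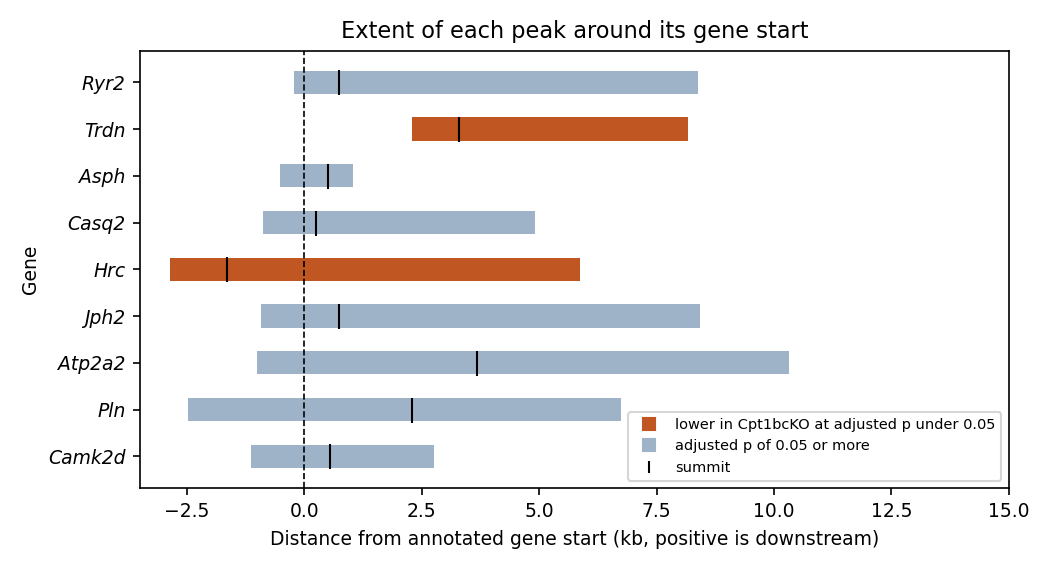
Extent of the 9 member peaks relative to the annotated start of each gene (kb, positive is downstream), with the summit as a vertical mark and the 2 peaks with an adjusted p under 0.05 in orange. The Trdn peak begins 2297 bases after the annotated start, and the Hrc peak has its summit 1639 bases before it.

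Of the 9 member peaks, 2 were lower in Cpt1bcKO at an adjusted p under 0.05 by limma and none was higher, by limma or by limma-voom. Over all tested peaks 1.82% were lower by that rule, and over broad peaks 4.66%. At an unadjusted p under 0.05, 3 members were lower and none higher, against 6.98% of tested peaks lower. The median log2 difference over the 9 members was -0.24. This median was 0.01 over all tested peaks, 0.0025 over broad peaks and -0.046 over the 498 other peaks of 5000 bases or more. Among the members 7 of 9 differences were negative, as were 48.8% over all tested peaks. The median over the members moved with single libraries: it was -0.08 without Cpt1bcKO replicate 3 and -0.36 without Cpt1bcKO replicate 2. The 2 lower peaks were those of *Hrc* and *Trdn*, and the release channel, the pump and its inhibitor did not pass.

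**Figure D3:**
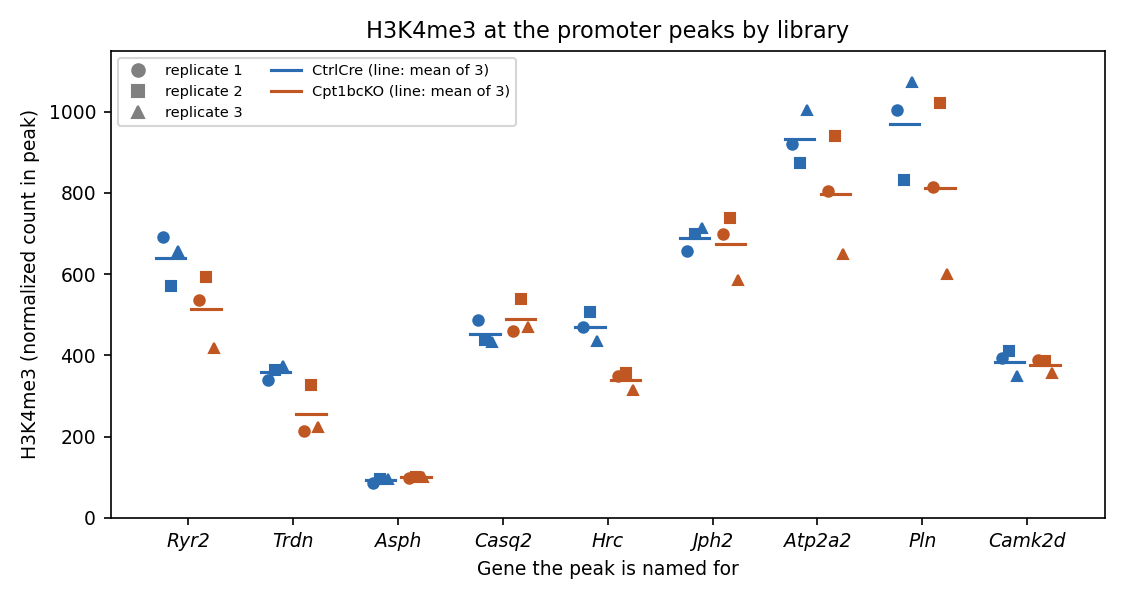
Normalized count in each member peak in the 3 CtrlCre (blue) and 3 Cpt1bcKO (orange) libraries, with symbols for replicates and lines for genotype means. All 3 Cpt1bcKO values lie below all 3 CtrlCre values at Trdn and Hrc, and Cpt1bcKO replicate 3 is lowest at Ryr2, Hrc, Jph2, Atp2a2 and Pln.

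*Hrc* (ENSMUSG00000038239) encodes the histidine-rich calcium-binding protein of the sarcoplasmic reticulum lumen, which binds triadin and the pump. Its peak (mm10, chr7:45332429-45341168) held 470, 507 and 435 normalized counts in CtrlCre replicates 1 to 3 and 349, 357 and 314 in Cpt1bcKO replicates 1 to 3. Every Cpt1bcKO library was below every CtrlCre library, a separation in this direction that 8.46% of tested peaks showed. The mean fell from 471 ± 36.0 (SD, n = 3) to 340 ± 22.9 (SD, n = 3). The log2 difference was -0.47 ± 0.10 (SE, limma, adjusted p = 0.00693), a change of -27.7%. The peak also covers the start of *Trpm4*, a calcium-activated cation channel gene on the opposite strand, 129 bases from the summit, and no other peak carries that name, and it reaches the last exons of *Ppfia3*, so the fall cannot be ascribed to *Hrc* alone. As in any pool of nuclei, fewer marked nuclei and less mark per nucleus cannot be told apart. Leaving out CtrlCre replicate 1 gave an adjusted p of 0.0507 at the same difference, and limma without its variance trend gave 0.173.

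*Trdn* (ENSMUSG00000019787) encodes triadin, which anchors calsequestrin to the release channel. Its peak (chr10:33082851-33088714) covers the 5 annotated transcript starts from 33083483 to 33083561, though not the start of the gene as deposited at 33080554. It held 339, 365 and 374 normalized counts in CtrlCre and 215, 327 and 223 in Cpt1bcKO. The groups did not overlap, but Cpt1bcKO replicate 2 came close to the lowest control, while the other 2 lay far below. The mean went from 359 ± 18.2 to 255 ± 62.5 (SD, n = 3 each). The log2 difference was -0.52 ± 0.12 (SE, limma, adjusted p = 0.0194), the largest in size among the members. The call was lost without CtrlCre replicate 1 (adjusted p = 0.0591), CtrlCre replicate 3 (0.0729), Cpt1bcKO replicate 1 (0.191) or Cpt1bcKO replicate 3 (0.139), and in limma without a variance trend (0.317).

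Another 2 peaks lie inside *Trdn* without a gene name. The first (chr10:33091549-33093448), in an intron and starting 10995 bases from the gene start, was weak, with 30, 30 and 46 normalized counts in CtrlCre and 18, 14 and 12 in Cpt1bcKO. The groups did not overlap, and the log2 difference was -1.20 ± 0.33 (SE, limma, adjusted p = 0.0499). This call was lost on leaving out any 1 of the 6 libraries, with adjusted p from 0.0524 (without CtrlCre replicate 2) to 0.243 (without CtrlCre replicate 3). The second (chr10:33251263-33258571), deep in the gene, was the strongest of the locus and covers the start of *D830005E20Rik*, a noncoding RNA gene read from the opposite strand. It held 650, 511 and 696 normalized counts in CtrlCre and 527, 691 and 487 in Cpt1bcKO, which overlap (log2 difference -0.13 ± 0.13, SE, limma, adjusted p = 0.765).

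Within a library the depth factor cancels from the ratio of 2 peaks, except for the 1 added to each value before the log. That addition matters most at weak peaks. The log2 ratio of the *Trdn* promoter peak to the strong inner peak was -0.94, -0.48 and -0.89 in CtrlCre and -1.29, -1.08 and -1.12 in Cpt1bcKO. The ratios did not overlap, with a difference of -0.39 (exact two-sided permutation test, p = 0.1, the smallest that 3 against 3 can give; 0.13 adjusted over 4 ratios). For the weak intronic peak over the strong one the difference was -1.08, also at p = 0.1 by the exact test. With 5 added to each value in place of 1, it was -0.90. When the 3 peaks of *Trdn* were summed, the log2 difference was -0.29 with an adjusted p of 0.332 by limma.

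**Figure D4:**
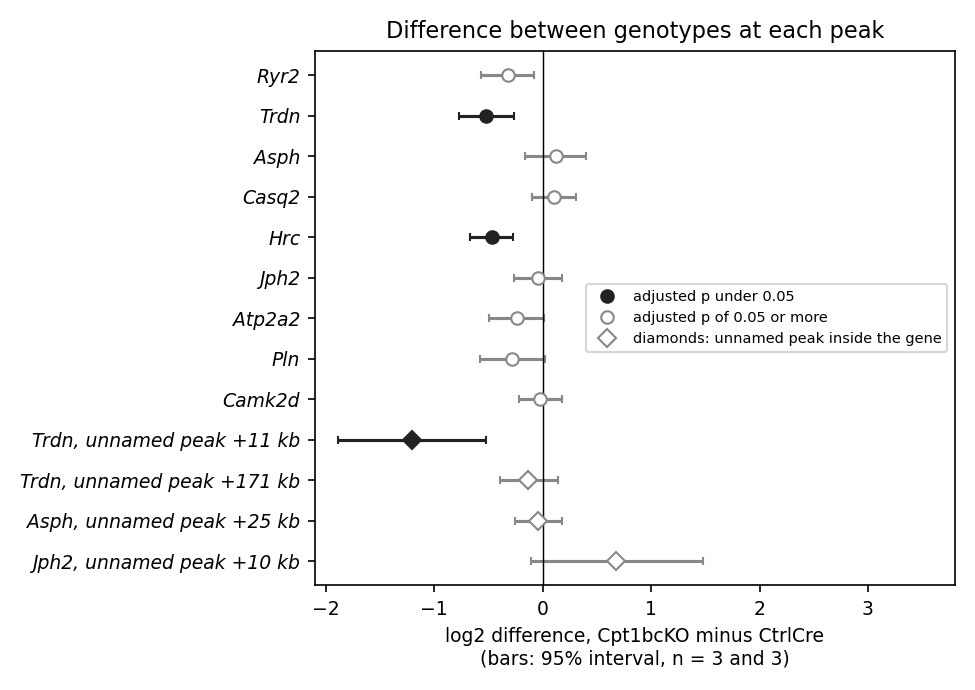
The log2 difference in H3K4me3 between Cpt1bcKO and CtrlCre with its 95% interval from limma, for the 9 member peaks (circles) and 4 unnamed peaks inside Trdn, Asph and Jph2 (diamonds), labelled by the distance of their first base from the gene start. Filled symbols, at Trdn (-0.52), Hrc (-0.47) and the weak Trdn peak (-1.20), have an adjusted p under 0.05.

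*Ryr2* (ENSMUSG00000021313) encodes the release channel of heart muscle. Its peak (chr13:12098555-12107174) held 692, 570 and 658 normalized counts in CtrlCre and 536, 592 and 418 in Cpt1bcKO. Values overlapped by 1 library, since Cpt1bcKO replicate 2 exceeded CtrlCre replicate 2. The log2 difference was -0.32 ± 0.12 (SE, limma), with an unadjusted p of 0.0122 and an adjusted p of 0.194. It was -0.18 without Cpt1bcKO replicate 3 and -0.43 without Cpt1bcKO replicate 2 (limma, adjusted p = 0.0690).

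The pump and its inhibitor carried the strongest signals. *Atp2a2* (ENSMUSG00000029467), which encodes the calcium pump SERCA2, had a peak at chr5:122491899-122503240 with 921, 874 and 1004 normalized counts in CtrlCre and 805, 939 and 650 in Cpt1bcKO. *Pln* (ENSMUSG00000038583), which encodes its inhibitor phospholamban, had a peak at chr10:53335188-53344413 with 1003, 832 and 1074 in CtrlCre and 814, 1021 and 600 in Cpt1bcKO. At both, Cpt1bcKO replicate 2 lay among the controls and Cpt1bcKO replicate 3 was far below every other library. The log2 difference was -0.24 ± 0.12 (SE, limma, adjusted p = 0.429) at *Atp2a2* and -0.28 ± 0.15 (SE, limma, adjusted p = 0.433) at *Pln*. Without Cpt1bcKO replicate 3 they were -0.10 and -0.08, and without Cpt1bcKO replicate 2 they were -0.36 (limma, adjusted p = 0.127) and -0.46 (0.0814). The genes of the pump and its inhibitor ranked the 6 libraries in the same order, and neither difference passed the test.

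*Sln*, the gene of sarcolipin, a second pump inhibitor that in mice is expressed mainly in atria, had no peak. Its bounds (chr9:53850164-53854560) were overlapped by none, and the nearest peak to its start lay 20355 bases away, with 5 to 12 normalized counts in CtrlCre and 5 to 7 in Cpt1bcKO. Since the table lists only called peaks, the level at *Sln* itself is not known.

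The remaining 4 members showed no difference that passed. *Casq2* (ENSMUSG00000027861) encodes calsequestrin, the main calcium store protein, and its peak (chr3:102085531-102091329) held 486, 439 and 433 normalized counts in CtrlCre and 460, 539 and 469 in Cpt1bcKO. The log2 difference was 0.11 with a 95% interval from -0.09 to 0.31 (limma, adjusted p = 0.724). *Jph2* (ENSMUSG00000017817), whose product ties the sarcoplasmic reticulum to the transverse tubules, had 656, 700 and 714 normalized counts at chr2:163389573-163398920 in CtrlCre and 700, 739 and 585 in Cpt1bcKO. Its interval ran from -0.26 to 0.18 around -0.04 (limma, adjusted p = 0.940), and the sign was positive without Cpt1bcKO replicate 3 (0.06). *Camk2d* (ENSMUSG00000053819), the gene of the cardiac calcium/calmodulin-dependent kinase, which phosphorylates the release channel and phospholamban, had 393, 411 and 348 normalized counts at chr3:126595818-126599719 in CtrlCre and 388, 386 and 357 in Cpt1bcKO. Its values interleaved, and its interval ran from -0.22 to 0.18 around -0.02 (limma, adjusted p = 0.965). This interval and those of *Casq2* and *Jph2* lie above the point estimates at *Hrc* and *Trdn*. Those estimates have intervals of their own, from -0.67 to -0.27 at *Hrc* and from -0.77 to -0.26 at *Trdn*. Whether the peaks differ from each other in their change was not tested.

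*Asph* (ENSMUSG00000028207) encodes aspartate beta-hydroxylase and, from a downstream start, the junctional proteins junctin and junctate. The peak at the upstream start (chr4:9668313-9669874) was the shortest and weakest of the members, with 86, 95 and 95 normalized counts in CtrlCre and 99, 101 and 100 in Cpt1bcKO. All 3 Cpt1bcKO values were above the controls, as at 7.80% of tested peaks, by a log2 difference of 0.12 with a 95% interval from -0.16 to 0.40 (limma, adjusted p = 0.796). As few as 41 recovered counts lie behind a value here, a counting error of 15.6% if each count is 1 read. An unnamed peak inside the gene (chr4:9639369-9643932) covers the downstream start at 9643717 and was broader and stronger. It held 292, 267 and 324 normalized counts in CtrlCre and 258, 321 and 282 in Cpt1bcKO (log2 difference -0.04, limma, adjusted p = 0.941). Per kb the peak at the downstream start held 63.7 normalized counts and that at the upstream start 61.5, and their ratio within libraries overlapped between the genotypes (exact two-sided permutation test, p = 0.3). A faint unnamed peak in *Jph2* (chr2:163386463-163387941) held 10, 12 and 19 normalized counts in CtrlCre and 23, 25 and 18 in Cpt1bcKO (log2 difference 0.68 ± 0.38, SE, limma, adjusted p = 0.483). Its log2 ratio to the *Jph2* promoter peak was -5.90, -5.75 and -5.16 in CtrlCre and -4.87, -4.83 and -4.95 in Cpt1bcKO, without overlap and with a difference of 0.72 (exact two-sided permutation test, p = 0.1, 0.13 adjusted over the 4 ratios). With 5 added to each value in place of 1, this difference was 0.59.

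Libraries of the same genotype did not behave alike over the members. As the deviation of the log2 value from the mean of the 6 libraries, the median over the 9 members was 0.10, 0.03 and 0.12 in CtrlCre and -0.09, 0.12 and -0.35 in Cpt1bcKO replicates 1 to 3. Cpt1bcKO replicate 2 thus stood with the controls and Cpt1bcKO replicate 3 well below all. Of the 9 members, 5 had their lowest value in Cpt1bcKO replicate 3, as did 36.5% of the 498 other peaks of 5000 bases or more and 16.8% of all tested peaks. Among those 498 wide peaks the median deviation was -0.10 in Cpt1bcKO replicate 3 and lay between -0.02 and 0.07 in the others, and over all tested peaks it was within 0.01 of 0 in every library. *Asph*, *Casq2* and *Camk2d* deviated least in Cpt1bcKO replicate 3 (0.06, -0.0023 and -0.09) and *Pln* most (-0.54). With both libraries numbered 3 left out, a comparison of 4 libraries chosen after these values were seen, the difference at *Hrc* stayed at -0.47 (limma, adjusted p = 0.0868), that at *Trdn* was -0.41 (0.404), and those at *Pln* and *Atp2a2* were -0.0029 and -0.05.

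**Figure D5:**
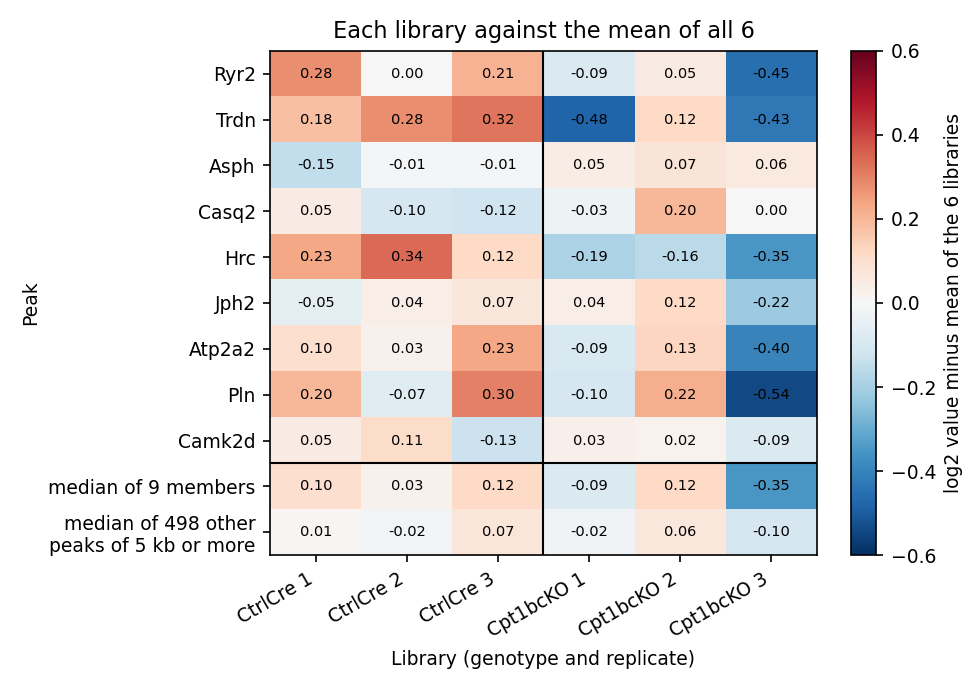
Deviation of each library from the mean of all 6 on the log2 scale, for the 9 member peaks, their median, and the median of the 498 other peaks of 5 kb or more. Columns are libraries and colour runs from blue (lower) to red (higher). Cpt1bcKO replicate 3 has the lowest median over the members, -0.35, and at Hrc all 3 Cpt1bcKO libraries are negative.

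Other genes of calcium cycling were read from a list of 62 that holds no member, of which 47 had 51 tested peaks. By limma 1 of the 51 was lower and 1 higher at an adjusted p under 0.05, where 2.93% of all tested peaks were called in either direction, and the median log2 difference was -0.04. Among partners of the release channel (14 peaks of 12 genes) 1 was higher, and among genes of surface entry, export and transverse tubules (10 peaks) 1 was lower. No peak was called among partners of the pump and store (9 peaks), inositol trisphosphate receptors and store-operated entry (7), mitochondrial calcium (6), or kinases and phosphatase (5). At an unadjusted p under 0.05 the count over these 4 groups was 1, and over all 51 peaks 5 were lower and 3 higher. Over all tested peaks 6.98% were lower by that rule and 12.8% passed it in either direction.

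The higher peak belonged to *S100a1*, whose product is a calcium sensor that binds the release channel and the pump. Its peak (chr3:90511501-90515767) held 232, 186 and 180 normalized counts in CtrlCre and 298, 313 and 267 in Cpt1bcKO, without overlap (log2 difference 0.56 ± 0.11, SE, limma, adjusted p = 0.00390). The lower one belonged to *Cacnb2*, a subunit of the L-type calcium channel, with 177, 163 and 170 normalized counts at chr2:14603814-14605524 in CtrlCre and 125, 116 and 125 in Cpt1bcKO (log2 difference -0.48 ± 0.11, SE, limma, adjusted p = 0.0159). The *Cacnb2* call was lost on leaving out CtrlCre replicate 1 (0.101), CtrlCre replicate 3 (0.0522) or Cpt1bcKO replicate 1 (0.0509), 2 (0.0791) or 3 (0.0504), with differences from -0.49 to -0.44, and that of *S100a1* held in each such fit. Next in order of p came a weak peak of *Prkaca*, the catalytic subunit of protein kinase A, with 24, 46 and 52 normalized counts in CtrlCre and 21, 14 and 15 in Cpt1bcKO (log2 difference -1.19 ± 0.33, SE, limma, adjusted p = 0.0564). The stronger peak of *Prkaca* held 116, 126 and 130 against 128, 108 and 132 (log2 difference -0.02, limma, adjusted p = 0.977). The weak peak was followed by *Cacna1c*, the pore of the L-type channel, with 501, 442 and 547 against 409, 427 and 358 (log2 difference -0.32 ± 0.10, SE, limma, adjusted p = 0.121). Without CtrlCre replicate 1 the adjusted p at the weak *Prkaca* peak was 0.0296, and without CtrlCre replicate 2 that at *Cacna1c* was 0.0416.

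The mean profile of the members over the 6 libraries, from log2 values standardized per peak, was 0.25, 0.28 and 0.24 in CtrlCre and -0.24, 0.57 and -1.09 in Cpt1bcKO. Among 11322 peaks named for other genes, the 5 with the highest Pearson correlation to it over the 6 libraries were those of *Nup85* (0.994), *Osgepl1* (0.986), *Alg10b* (0.984), *Coq10b* (0.983) and *Mrpl32* (0.982), and 0.848% of these peaks exceeded 0.9. The log2 differences of these 5 between genotypes ranged from -0.24 to -0.05, and their adjusted p by limma from 0.575 to 0.930. With 6 points that share depth factors, such values describe the order of libraries and no more.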

How the data were processed

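H3K4me3 was measured by ChIP–seq in 6 libraries, 3 per genotype, and 6 input libraries have no columns of their own and entered no comparison here. The authors trimmed reads with Trimmomatic 0.39, aligned them to mm10 (GRCm38) with STAR 2.6.1d, removed duplicates with Picard 2.21.7, called peaks against input with MUSIC (FDR of 0.2), merged them and named each for the nearest promoter within 5000 bases (GENCODE vM15). The deposited values per library, treated as a score, are the authors' counts per peak divided by DESeq2 1.26.0 size factors and rounded. The authors made those counts with bigWigAverageOverBed, so 1 count need not be 1 read, which was not tested. The deposited genotype means (a signal of the same normalized counts, unrounded) served to recover whole counts, with 1 solution at 15848 of 15848 peaks. The authors' fraction of each peak inside the gene body was read but not tested, and the deposited fold changes, p-values and adjusted p-values of the authors' own comparison were not used. Size factors centre the bulk of peaks on no change, so each difference is relative to other peaks, and a peak's width is that of the union over libraries.

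Peaks with a mean of at least 10 were tested with limma 3.58.1 in R 4.3.3 (lmFit, eBayes with trend, two-sided) on log2(value + 1), which understates changes of low peaks, with genotype alone and Benjamini–Hochberg adjustment over all 15039. Intervals are 95% intervals from that fit. Ratios within a gene were compared with exact permutation tests. They had been planned for several peaks named for the same gene, which no member had, and were applied to unnamed peaks inside the genes. Annotation was read from GENCODE vM21 and promoters from RefSeq, both on GRCm38, with coordinates as deposited. The fit was tested on simulated data. The text names all members, listed calcium cycling genes that were called or, up to 4, had the smallest p, the 5 peaks most like the members over libraries, and *Cpt1b*; features beside these were named for their overlap with a member. Members and lists were chosen with earlier results of these data known. Counting error at the members was from 5.16% to 15.6% in the library with the fewest recovered counts. It takes each count as 1 read and covers counting only.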

Additional observations from a re-analysis of the deposited data

How the results depend on the processing

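The count of 2 lower members at an adjusted p under 0.05 was the same with a pseudocount of 5, no filter, a mean of at least 50, quantile normalization and limma-voom on recovered counts, and no member was higher under any alternative run. Leaving out 1 library at a time gave 0 to 2 lower members, 2 to 5 at an unadjusted p under 0.05, a median log2 difference from -0.36 to -0.08, 1 to 3 other calcium cycling peaks and 229 to 431 of all tested peaks (441 with all 6). Limma without the variance trend called 43 tested peaks, 0 members and 0 other calcium cycling peaks. On 4 libraries, without those numbered 3, it was 82, 0 and 0, with a median over members of -0.045. Limma-voom called 5 members lower at an unadjusted p under 0.05, and summing the peaks inside a gene left 1 member at an adjusted p under 0.05, *Hrc*. The sum for *Trdn* holds the strong inner peak, which carries the id of another gene. The cause of these shifts was not tested, beyond the fewer libraries of some.

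Signs turned where the difference was near 0, and at the strong inner *Trdn* peak, where it was -0.13 in the main fit. *Jph2* was at 0.0047 with quantile normalization and 0.086 on the 4 libraries, and ranged from -0.11 to 0.061 (without Cpt1bcKO replicate 3) as 1 library was left out. *Camk2d* ranged from -0.093 to 0.027, above 0 without CtrlCre replicate 2 or Cpt1bcKO replicate 3. The inner *Asph* peak ranged from -0.12 to 0.036, above 0 without CtrlCre replicate 3 or Cpt1bcKO replicate 1, and was at 0.043 on the 4 libraries, where the strong inner *Trdn* peak was at 0.066. With the replicate number as a block, 370 tested peaks and again 2 members were called, and the weak *Trdn* peak was at an adjusted p of 0.0772. Deviations of same-numbered libraries correlated at 0.076, -0.081 and 0.11, so the numbers were not taken to pair them. All 8 broad members stayed broad with thresholds over all peaks. Depth limits the weak peaks most: the *Jph2* inner peak rests on as few as 5 recovered counts in a library.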
